A study of Mus musculus with 35 samples.

Results

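The IAMP gene, 4930523C07Rik, and 5 named neighbours on chromosome 1 (Tnr, Tnn, Mrps14, Cacybp and Rabgap1l) were followed through RNA-Seq of mouse cardiac fibroblasts (CFs) and hearts. The 6 genes were taken by symbol from the 55487 genes of each of 4 count tables. The comparisons ask whether the siRNA effect stays at the IAMP gene or extends to the genes beside it. Primary CFs from adult mice were transfected with a control siRNA (si-NC) or with 1 of 2 siRNAs against IAMP (si-IAMP-1, si-IAMP-2), and were left untreated or given IL-17 or TGF-β, with 3 libraries in each of the 9 groups. For the IL-17 groups the labels state 24 h with siRNA and then 24 h with IL-17. All groups of CFs thus carried an siRNA, and the cells were those that adhered to collagen-coated plates. The hearts came from 8-week-old C57BL/6 mice without injury, 4 IAMP-KO (KO) and 4 heterozygous (Het) animals. The KO mice are 1 CRISPR-Cas9 line with a frameshift in the small open reading frame (sORF), so the Het controls carry 1 edited allele too, and no wild-type hearts were analysed here. Nothing in the labels says that the 3 libraries of a CF group came from separate isolations, so the p values measure the spread between these libraries, which may be technical.

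IAMP is a micropeptide, a short protein translated from a transcript that looks noncoding at first sight. An siRNA acts on mature RNA through base pairing and is designed to lower 1 transcript, although short matches elsewhere can lower others. Genes that lie side by side can share a promoter, an enhancer or overlapping transcripts, which is why the neighbours of a knocked-down locus are worth reading one by one. The neighbours have different jobs. Tnr (tenascin-R) and Tnn (tenascin-N, also called tenascin-W) are extracellular matrix glycoproteins, the first best known from the nervous system and the second from bone and tumour stroma. Mrps14 is a protein of the small subunit of the mitochondrial ribosome. Cacybp binds S100A6 and Siah1 and takes part in ubiquitin-dependent turnover of β-catenin. Rabgap1l belongs to the TBC-domain proteins that switch off Rab GTPases in vesicle traffic.

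In the GENCODE vM21 annotation of GRCm38, the build of the deposited tables, 4930523C07Rik (ENSMUSG00000090394) spans bases 160044382 to 160080208 of chromosome 1 on the plus strand. Tnr lies upstream on the same strand, from 159523769 to 159931729, with 112652 bases between the 2 genes. Downstream, Tnn lies on the minus strand from 160085029 to 160153580, so that it and the IAMP gene run toward each other across a gap of 4820 bases. Mrps14 follows on the plus strand from 160195215 to 160202170. Cacybp is on the minus strand from 160202367 to 160212875, with its 3′ end 196 bases from that of Mrps14. Rabgap1l is on the minus strand from 160219174 to 160793211, with its 3′ end 6298 bases beyond the 5′ end of Cacybp. Noncoding genes sit inside these gaps. Gm37294, a lincRNA on the minus strand, starts 50 bases upstream of the IAMP gene, and 4930562F07Rik, another lincRNA on the minus strand, shares 601 exon bases with it, which is 5.9% of the exon bases of 4930523C07Rik.

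The sORF lies in exon 3 from 160075162 to 160075461 on the plus strand and has 99 codons before its stop codon. It is shown because the siRNAs lower the transcript that carries it, and because part of it is annotated as transcribed in the other direction too. The 166 capitals mark the bases that lie in an exon of the antisense gene 4930562F07Rik, and the sequence was assembled from the annotated transcripts of GRCm38.
4930523C07Rik sORF, chr1:160075162-160075461, plus strand: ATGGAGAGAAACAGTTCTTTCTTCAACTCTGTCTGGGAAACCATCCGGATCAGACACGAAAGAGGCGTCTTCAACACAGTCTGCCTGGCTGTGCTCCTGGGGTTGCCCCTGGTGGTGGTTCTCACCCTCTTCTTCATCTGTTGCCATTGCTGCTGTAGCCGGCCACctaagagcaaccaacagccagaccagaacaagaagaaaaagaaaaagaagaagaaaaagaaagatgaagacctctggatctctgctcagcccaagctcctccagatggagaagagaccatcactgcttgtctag
The promoter of the IAMP gene is shown because a second gene starts beside it. It spans the RefSeq start of the gene (GRCm38.p6), and the 184 capitals mark the bases that belong to an exon of Gm37294 on the other strand.
4930523C07Rik promoter, chr1:160044130-160044429, plus strand: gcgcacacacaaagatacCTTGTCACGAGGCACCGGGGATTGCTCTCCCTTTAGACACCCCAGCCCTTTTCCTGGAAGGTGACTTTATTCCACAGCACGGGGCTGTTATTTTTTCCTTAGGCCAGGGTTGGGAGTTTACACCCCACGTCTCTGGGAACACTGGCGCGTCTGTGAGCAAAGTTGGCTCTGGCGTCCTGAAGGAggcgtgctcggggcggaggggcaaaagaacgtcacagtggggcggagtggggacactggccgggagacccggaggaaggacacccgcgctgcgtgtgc
The GC box core GGGCGG, searched on both strands, occurred in this promoter and in those of Mrps14, Cacybp and Rabgap1l, and in neither that of Tnn nor that of Tnr. It occurred in 35.7% of all 32851 RefSeq promoters of this length, so its presence is common. The IAMP and Mrps14 promoters each held 18 CpG dinucleotides, that of Cacybp 30 and that of Rabgap1l 38, against 7 for Tnn and 3 for Tnr.

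A CF library held 104139670 to 119232309 estimated counts and a heart 23497027 to 23857313 counts. For CFs, a single read pair stands for about 6 estimated counts, and the detection floor was set at 3 read pairs, which is 18 estimated counts or 0.154 to 0.169 CPM (counts scaled to the library total). In hearts the floor was 3 counts. Floors cover counting error only. The CF libraries held 5871 to 11790 CPM of the 6 fibroblast markers, while Myh6, the major cardiac myosin heavy chain, lay under the floor in all 27 of them. Their summed cardiomyocyte markers nevertheless moved with the siRNAs, from a median of 94.6 CPM with si-NC to 46.6 CPM with si-IAMP-1 and 31.3 CPM with si-IAMP-2 in untreated CFs. Nearly all of that sum was Tnnt2, with means of 93.5, 44.3 and 29.7 CPM, and its part in the results below was not tested. Every pair of libraries within a group differed by more than sampling noise (chi-square per degree of freedom of at least 2.02).

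Levels were compared between genes per kilobase of exon. In untreated si-NC CFs, Cacybp stood highest at 36.9 ± 1.21 CPM per kilobase (SD, n = 3), followed by Mrps14 at 7.69 ± 0.598, 4930523C07Rik at 2.31 ± 0.199 and Rabgap1l at 1.35 ± 0.0573. These 4 levels did not overlap. Tnn (0.0201 ± 0.0180) and Tnr (0.00942 ± 0.00549) lay far lower and could not be ordered against each other. In Het hearts the order was the same for the 4 upper genes, with Cacybp at 12.9 ± 0.963 CPM per kilobase (SD, n = 4), Mrps14 at 8.51 ± 0.997, 4930523C07Rik at 1.67 ± 0.123 and Rabgap1l at 1.26 ± 0.117, again without overlap. CFs and hearts are given side by side only, because their counts are not of the same kind.

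Both siRNAs lowered the IAMP transcript in every state of the CFs. In untreated cells, 4930523C07Rik stood at 22.02, 22.7 and 25.8 CPM with si-NC, at 2.51, 3.51 and 2.97 CPM with si-IAMP-1 and at 1.76, 1.83 and 1.88 CPM with si-IAMP-2. The 3 groups did not overlap, and every knockdown library was still above the floor. The log2 fold change was -2.97 ± 0.11 (SE) with si-IAMP-1, which leaves 12.8% of the control level, and -3.69 ± 0.12 with si-IAMP-2, which leaves 7.75% (edgeR quasi-likelihood test, adjusted p = 3.4e-12 and 1.3e-13). si-IAMP-2 thus lowered the transcript further than si-IAMP-1, by -0.72 ± 0.12 (adjusted p = 6.1e-05). Both siRNA comparisons share the si-NC libraries.

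**Figure D1:**
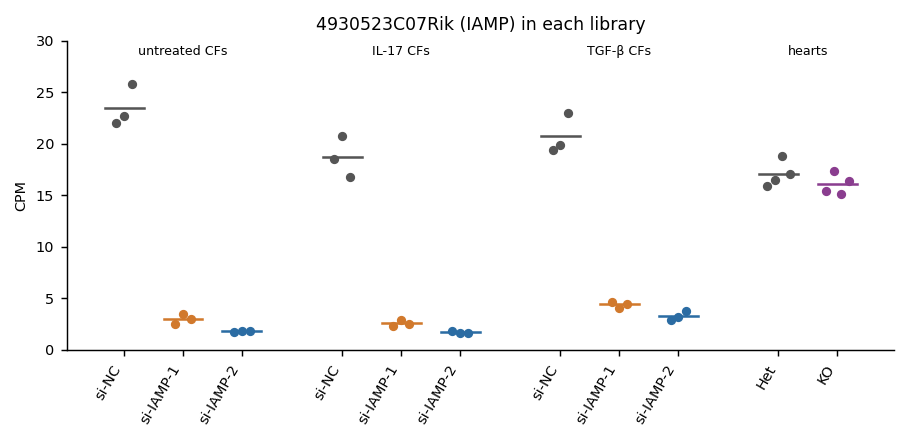
CPM of 4930523C07Rik (y axis) in each of the 35 libraries (points) by group (x axis), with the group mean as a line. The si-NC libraries sit between 16.8 and 25.8 CPM and the knockdown libraries between 1.65 and 4.66 CPM, while Het and KO hearts overlap between 15.2 and 18.8 CPM.

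With IL-17, 4930523C07Rik was 18.5, 20.8 and 16.8 CPM under si-NC, 2.34, 2.88 and 2.54 CPM under si-IAMP-1 and 1.86, 1.66 and 1.65 CPM under si-IAMP-2. The log2 fold changes were -2.85 ± 0.11 and -3.44 ± 0.11 (edgeR, adjusted p = 1.5e-12 and 7.5e-14), leaving 13.8% and 9.24% of the control. si-IAMP-2 was again the lower, by -0.58 ± 0.11 (adjusted p = 3.1e-04). With TGF-β the same gene read 19.4, 19.8 and 23.0 CPM under si-NC, 4.66, 4.07 and 4.49 CPM under si-IAMP-1 and 2.92, 3.23 and 3.78 CPM under si-IAMP-2. Here the log2 fold changes were -2.23 ± 0.105 and -2.65 ± 0.11 (adjusted p = 1.2e-10 and 1.1e-11), and 21.3% and 16.0% of the control remained. The siRNAs differed by -0.41 ± 0.11 (adjusted p = 0.0087), and without 1 si-IAMP-2 library this difference was -0.33 with an adjusted p of 0.051. The 3 knockdown libraries of each siRNA lay below all 3 control libraries of their table.

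The knockdown was shallower in the TGF-β table than in the untreated table. The effect of si-IAMP-1 on 4930523C07Rik was smaller in size by 0.73 ± 0.15 on the log2 scale (edgeR interaction, adjusted p = 0.0011) and that of si-IAMP-2 by 1.03 ± 0.16 (adjusted p = 1.7e-05). All 3 TGF-β libraries of an siRNA kept more IAMP transcript than all 3 untreated libraries of that siRNA, for both siRNAs. Of all genes tested, 19.6% and 30.2% passed this test of a difference between the states for the 2 siRNAs. Under IL-17 the effects differed from those in untreated cells by 0.12 ± 0.15 and 0.26 ± 0.16, neither of which passed (adjusted p = 0.876 and 0.655), where 2.13% and 1.89% of all genes did. Without knockdown, the IAMP transcript was lower in IL-17 than in untreated si-NC cells by -0.33 ± 0.10 (adjusted p = 0.028), and by -0.21 ± 0.10 with TGF-β (adjusted p = 0.10, 95% interval -0.42 to 0.01). The IL-17 difference lost its call when any 1 of 3 libraries was left out, with adjusted p values of 0.17, 0.092 and 0.18 and log2 values of -0.26, -0.32 and -0.26. Each stimulus was counted in a table of its own, so stimulus and table cannot be told apart in the si-NC comparison. The differences of siRNA effect are taken within each table first, but there too a stimulus and the experiment it was run in, with its own transfections, cannot be told apart.

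At the 3 expressed neighbours the siRNAs left changes that were small in size. Of the 4 neighbours with enough reads to be tested in untreated CFs, 3 changed with si-IAMP-1 (Mrps14 up, Cacybp and Rabgap1l down) and 3 with si-IAMP-2 (Tnr, Cacybp and Rabgap1l up), against 39.9% and 49.3% of all genes tested. Under IL-17 it was 3 of 4 with each siRNA, against 42.3% and 50.6%, and with TGF-β it was 1 of 5, Cacybp, with each siRNA, against 23.1% and 29.9%. With 4 or 5 genes these counts are a description, and a large part of the transcriptome changed beside them. At the fold thresholds of the study (2-fold in untreated CFs and 1.5-fold under IL-17, the latter used here for TGF-β too) the neighbours dropped out almost completely. Against si-NC, the single one past it was Tnr with si-IAMP-2 in untreated cells, where 10.7% of all genes passed. None passed with si-IAMP-1 in untreated cells (4.76% of all genes), with either siRNA under IL-17 (13.5% and 21.7%) or with either under TGF-β (4.36% and 7.51%). Between the 2 siRNAs, Cacybp passed the 1.5-fold threshold under IL-17 (0.63, edgeR, adjusted p = 6.6e-11), where 1208 genes higher and 1914 lower of 19906 tested passed. For Mrps14, Cacybp and Rabgap1l, the 95% intervals of all 18 differences from si-NC lay within -0.47 to 0.52 on the log2 scale. The fold changes of the IAMP transcript ran from -3.69 to -2.23.

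**Figure D2:**
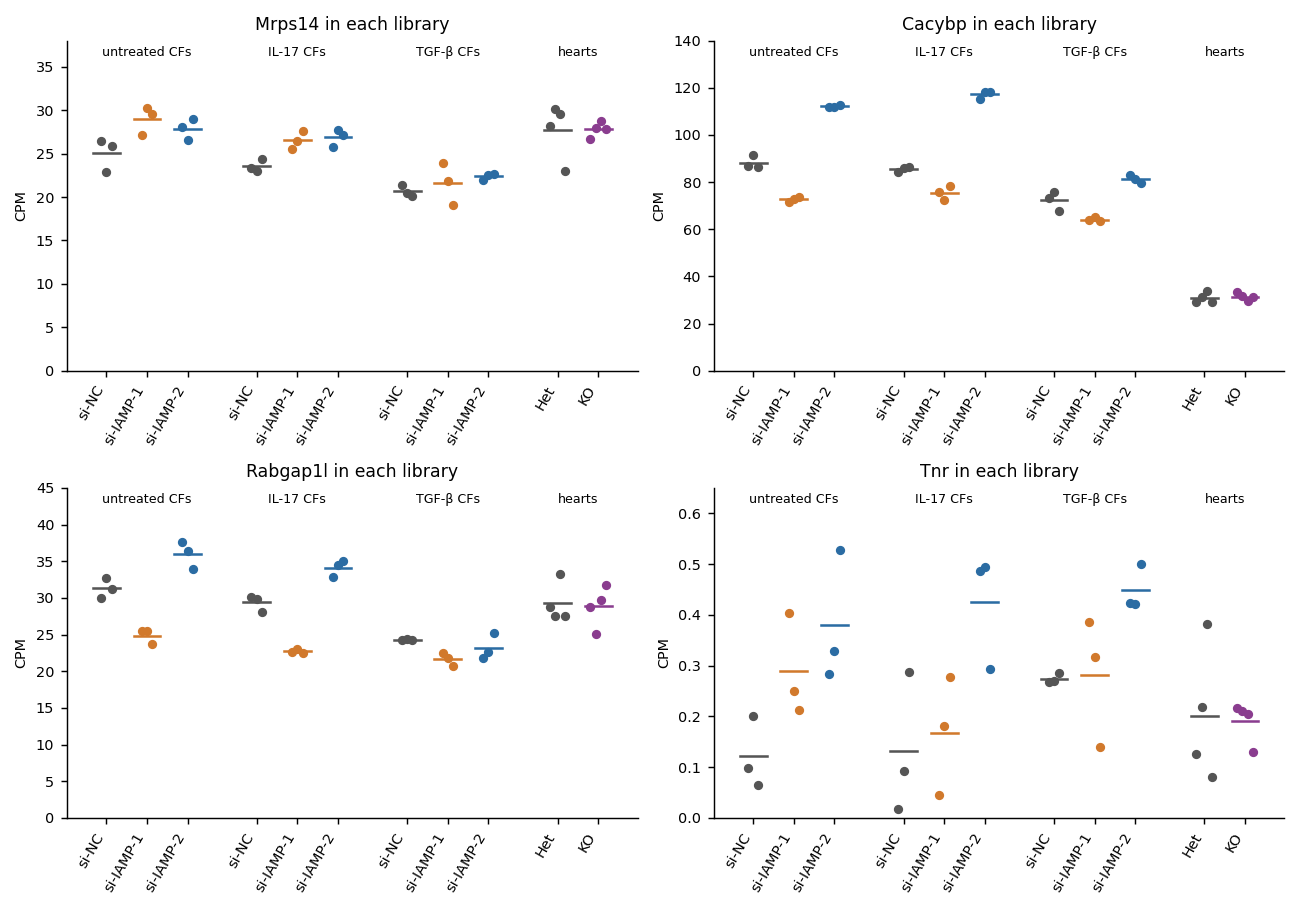
CPM (y axis) of Mrps14, Cacybp, Rabgap1l and Tnr in each library (points) by group (x axis), with group means as lines. Cacybp is lowest with si-IAMP-1 and highest with si-IAMP-2 in all 3 CF tables, Rabgap1l is so in untreated and IL-17 CFs, and Tnr stays under 0.53 CPM throughout.

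Cacybp moved in opposite directions with the 2 siRNAs. In untreated CFs it read 86.8, 91.5 and 86.2 CPM with si-NC, 71.5, 72.9 and 73.8 CPM with si-IAMP-1 and 112, 112 and 113 CPM with si-IAMP-2. The 3 groups were fully apart, with si-IAMP-1 below and si-IAMP-2 above the control. The log2 fold changes were -0.28 ± 0.03 and 0.35 ± 0.03 (edgeR, adjusted p = 3.8e-06 and 1.5e-07). With IL-17 it was 84.4, 86.0 and 86.4 CPM under si-NC, 76.0, 72.3 and 78.3 CPM under si-IAMP-1, and 115, 118 and 118 CPM under si-IAMP-2. This is the same order, with log2 fold changes of -0.18 ± 0.03 and 0.45 ± 0.03 (adjusted p = 2.6e-04 and 2.95e-09). With TGF-β it was 73.2, 76.0 and 67.9 CPM, then 63.8, 65.2 and 63.3 CPM, then 82.8, 81.4 and 79.5 CPM in the same order of groups. The changes there were -0.18 ± 0.04 and 0.17 ± 0.04 (adjusted p = 0.0068 and 0.0071), and the groups again did not overlap. The direct comparison of si-IAMP-2 with si-IAMP-1 gave 0.62 ± 0.03 in untreated, 0.63 ± 0.03 in IL-17 and 0.34 ± 0.04 in TGF-β cells (adjusted p = 1.6e-10, 6.6e-11 and 1.8e-05), where 45.5%, 46.2% and 24.0% of all genes passed. The rise with si-IAMP-2 was smaller under TGF-β than in untreated cells, by -0.20 ± 0.05 (adjusted p = 0.0061), and the test of the same difference for si-IAMP-1 gave 0.10 ± 0.05 (adjusted p = 0.25). In all 3 tables the si-NC level of Cacybp thus lay between those of the 2 siRNAs, while 4930523C07Rik was lower with both.

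Rabgap1l, the longest of the 6 genes, showed the same split in untreated and IL-17 cells. In untreated CFs it was 30.01, 32.7 and 31.2 CPM with si-NC, 25.4, 25.5 and 23.7 CPM with si-IAMP-1 and 37.6, 36.4 and 34.0 CPM with si-IAMP-2. The groups did not overlap, and the log2 fold changes were -0.33 ± 0.06 and 0.20 ± 0.06 (edgeR, adjusted p = 1.2e-04 and 0.0056). Under IL-17 it was 30.2, 29.9 and 28.1 CPM, 22.7, 23.1 and 22.5 CPM and 32.9, 34.4 and 34.98 CPM. The changes were -0.37 ± 0.05 and 0.21 ± 0.05 (adjusted p = 1.0e-05 and 0.0014), again without overlap. Under TGF-β the values were 24.2, 24.3 and 24.2 CPM, 22.5, 21.8 and 20.7 CPM, and 21.8, 22.6 and 25.2 CPM. Neither siRNA passed there, with -0.16 ± 0.06 (adjusted p = 0.0695, 95% interval -0.30 to -0.03) and -0.06 ± 0.06 (adjusted p = 0.51, 95% interval -0.20 to 0.07). The effect of si-IAMP-2 differed between TGF-β and untreated cells by -0.29 ± 0.08 (adjusted p = 0.0105). This call was lost when any 1 of 3 libraries was left out, with values of -0.23, -0.22 and -0.23 and adjusted p values of 0.070, 0.066 and 0.058. Between the siRNAs, Rabgap1l differed by 0.53 ± 0.06 in untreated, 0.58 ± 0.05 in IL-17 and 0.10 ± 0.06 in TGF-β cells (adjusted p = 4.7e-07, 3.2e-08 and 0.30).

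**Figure D3:**
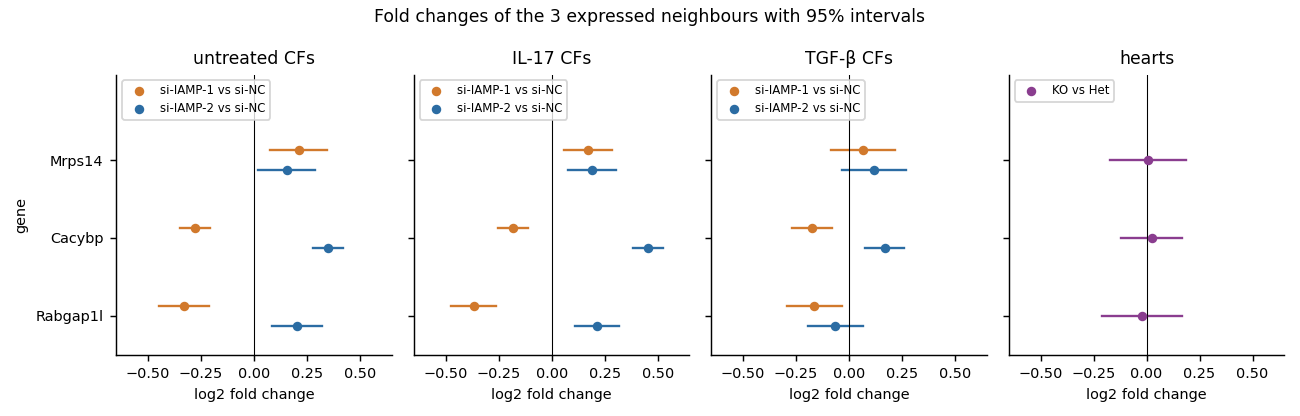
Log2 fold change (x axis) of Mrps14, Cacybp and Rabgap1l (y axis) for each siRNA against si-NC in the 3 CF tables and for KO against Het hearts, with 95% intervals as bars. Cacybp lies on opposite sides of 0 with the 2 siRNAs in each CF table, the points of Mrps14 lie above 0 with both, and all 3 heart intervals span 0.

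Mrps14 rose slightly with si-IAMP-1 in untreated CFs and with both siRNAs under IL-17. In untreated CFs it was 26.5, 22.8 and 25.9 CPM with si-NC, 27.2, 30.3 and 29.5 CPM with si-IAMP-1 and 28.0, 26.6 and 28.9 CPM with si-IAMP-2. The knockdown libraries lay above the control libraries, by a log2 fold change of 0.21 ± 0.06 with si-IAMP-1 (edgeR, adjusted p = 0.014) and 0.15 ± 0.06 with si-IAMP-2 (adjusted p = 0.059). Under IL-17 the values were 23.4, 23.0 and 24.3 CPM, 25.5, 26.5 and 27.6 CPM and 25.8, 27.7 and 27.1 CPM, with changes of 0.17 ± 0.05 and 0.19 ± 0.05 (adjusted p = 0.015 and 0.0061). Under TGF-β they were 21.4, 20.5 and 20.1 CPM, 23.9, 21.8 and 19.0 CPM and 21.9, 22.6 and 22.6 CPM, and neither siRNA passed (0.06 ± 0.07 and 0.12 ± 0.07, adjusted p = 0.61 and 0.26). The si-IAMP-1 calls were lost when any 1 of 3 libraries was left out in untreated cells (adjusted p = 0.0705, 0.0518 and 0.08) and in IL-17 cells (adjusted p = 0.0795, 0.0522 and 0.0581). The si-IAMP-2 value in untreated cells passed with DESeq2, with RLE size factors, after division of the counts by 6, and when either of 2 libraries was left out (adjusted p = 0.045, 0.045, 0.034, 0.047 and 0.042). No difference between the siRNAs passed (-0.06 to 0.05 in the 3 CF states, adjusted p of at least 0.523, 95% intervals within -0.19 to 0.20). Although Mrps14 and Cacybp end 196 bases apart, si-IAMP-1 moved them in opposite directions.

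The 2 tenascins were barely read in CFs. Tnr gave 12, 24 and 8 estimated counts with si-NC in untreated cells, 46, 28 and 24 with si-IAMP-1 and 33, 38 and 61 with si-IAMP-2, against a floor of 18. The si-IAMP-2 libraries lay above the si-NC libraries, with a log2 fold change of 1.64 ± 0.55 (edgeR, adjusted p = 0.021). With si-IAMP-1 it was 1.25 ± 0.55 (adjusted p = 0.089). Leaving out any 1 of 3 libraries ended the si-IAMP-2 call, with adjusted p values of 0.103, 0.0617 and 0.0715, and leaving out 1 si-NC library made the si-IAMP-1 value 1.81 with an adjusted p of 0.027. Under IL-17 Tnr was at 2, 11 and 35 estimated counts with si-NC, 5, 20 and 31 with si-IAMP-1 and 56, 58 and 34 with si-IAMP-2. Neither siRNA passed there (0.35 ± 0.78 and 1.68 ± 0.77, adjusted p = 0.78 and 0.0832), and without 1 si-NC library the si-IAMP-2 value was 2.95 with an adjusted p of 0.0104. Under TGF-β it was at 29, 29 and 31, at 41, 34 and 15 and at 44, 43 and 53 estimated counts, with changes of 0.03 ± 0.44 and 0.71 ± 0.44 (adjusted p = 0.976 and 0.265). Since 1 read pair gives about 6 counts, these are differences of a few read pairs per library. The summed markers of glia and neurons, in which Tnr is best known, moved in the same direction in untreated cells (medians 87.8, 129 and 182 CPM in the order si-NC, si-IAMP-1, si-IAMP-2). Almost all of that sum was Tubb3 (75.7, 118 and 170 CPM). The mean of Sox10, a glial marker of the list, was 0.0521, 0.165 and 0.0863 CPM. The floor was 0.154 CPM, so only the si-IAMP-1 mean of Sox10 lay above it. Under TGF-β the sum ran the other way, at 74.5, 60.3 and 50.9 CPM. Its part in the Tnr values was not tested.

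Tnn, the nearest protein-coding neighbour, was above the floor in 2 of the 27 CF libraries. It had 0, 18 and 25 estimated counts with si-NC, 0 in all 3 libraries with si-IAMP-1 and 0, 6 and 5 with si-IAMP-2 in untreated cells. Under IL-17 no library exceeded 11 estimated counts, and under TGF-β none exceeded 21. It had too few reads for a test within the untreated or IL-17 table. Under TGF-β neither siRNA passed (edgeR, adjusted p = 0.947 and 0.837, 95% intervals of the log2 fold change -2.275 to 1.97 and -2.53 to 1.75). With the control libraries at or near the floor, no fold change is given, and this depth does not settle whether Tnn fell. The count of neighbours past the fold threshold implies that Tnn was called lower with si-IAMP-1 in untreated CFs under some alternatives. These were the fit without a filter and those without si-NC replicate 1 or si-IAMP-2 replicate 1. The noncoding genes at the locus were as low. Gm37294, beside the IAMP start, was at 0 in 25 of the 27 CF libraries and reached at most 4 estimated counts. The antisense gene 4930562F07Rik was at 10 to 12 and 6 to 16 estimated counts in the si-NC libraries of the untreated and IL-17 tables and 21 to 28 in those of the TGF-β table. With si-IAMP-1 it was at 7 to 13, 5 to 13 and 2 to 20 estimated counts in the 3 tables, overlapping si-NC in the first 2, and with si-IAMP-2 at 0 to 9 in all 9 libraries. None of its tests against si-NC passed, and most of these values lie under the floor. Since the strand setting of the counting is not stated, reads of 4930562F07Rik and of the 601 bases it shares with IAMP cannot be told apart.

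The stimuli were then compared in si-NC cells, where IAMP was intact. IL-17 left all 5 neighbours without a call, against 13.6% of all genes tested, with Mrps14 at -0.09 ± 0.06, Cacybp at -0.04 ± 0.03 and Rabgap1l at -0.09 ± 0.05 (edgeR, adjusted p = 0.452, 0.565 and 0.335). With TGF-β, 3 of the 5 were lower, against 57.3% of all genes called. These were Mrps14 by -0.30 ± 0.07, Cacybp by -0.31 ± 0.04 and Rabgap1l by -0.39 ± 0.06 (adjusted p = 5.9e-04, 1.5e-07 and 3.1e-06). Their TGF-β libraries lay below their untreated libraries without overlap. Tnr had a log2 fold change of 1.15 ± 0.51 (adjusted p = 0.0606), which passed with DESeq2 (adjusted p = 0.0482) and when either of 2 libraries was left out (adjusted p = 0.015 and 0.0491). As above, stimulus and table cannot be told apart here.

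In hearts none of the 4 expressed genes passed the test between KO and Het animals. 4930523C07Rik was at 15.9, 16.5, 18.8 and 17.03 CPM in Het and 15.4, 17.3, 15.2 and 16.3 CPM in KO hearts. The groups overlapped, and the log2 fold change was -0.09 ± 0.07 (edgeR, adjusted p = 1, 95% interval -0.24 to 0.07). A frameshift need not change the count of the transcript, so this count checks neither the genotype nor the loss of the peptide. Mrps14 was at 28.2, 30.1, 29.62 and 23.0 CPM in Het and 26.7, 28.0, 28.8 and 27.9 CPM in KO hearts. Cacybp was at 28.9, 31.4, 33.9 and 29.3 CPM against 33.3, 31.8, 29.5 and 31.1 CPM, and Rabgap1l at 28.8, 27.6, 33.3 and 27.5 CPM against 28.8, 25.1, 29.7 and 31.7 CPM. The 3 log2 fold changes were 0.01 ± 0.08, 0.02 ± 0.06 and -0.02 ± 0.08 (adjusted p = 1 for each), with 95% intervals of -0.17 to 0.19, -0.12 to 0.17 and -0.21 to 0.17. Of all 16675 genes tested, 0% were called by edgeR, with 601 at an unadjusted p under 0.05, and DESeq2 called 3. Tnn had 0 to 7 and Tnr 2 to 9 counts per heart, too few to be tested. In whole hearts, fewer fibroblasts and less RNA per fibroblast cannot be told apart, and the fibroblast markers summed to 455 to 699 CPM in Het and 592 to 621 CPM in KO hearts.

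Beyond the 5 neighbours, 63 genes were annotated within 1 Mb of the ends of the IAMP gene, the 6 named genes included. Of the others, 12 were tested in untreated CFs. With si-IAMP-1, 1 of these was higher and 4 lower, and with si-IAMP-2 again 1 and 4, which is 41.7% each, against 39.9% and 49.3% of all genes. Their median log2 fold changes were 0.10 and -0.04, beside -0.02 and -0.02 over all genes and -0.05 and -0.04 over the other genes of chromosome 1. Under IL-17 it was 4 and 5 of 13 (42.3% and 50.6% of all genes), and under TGF-β 1 of 10 with each siRNA (23.1% and 29.9% of all genes). These shares lay near or below those of all genes. No gene within 0.5 Mb other than the neighbours was called in any of these 6 comparisons. Only 4930562F07Rik and 4933417C20Rik were tested there, both with few counts, so the absence of a call says little. The single gene at 1 CPM or more and past the fold threshold with both siRNAs in a table was Cenpl, in IL-17 CFs, 991 kb from the IAMP gene, which encodes a kinetochore protein. Cenpl fell by 0.81 ± 0.09 and 1.54 ± 0.09 on the log2 scale in untreated CFs and by 0.74 ± 0.11 and 1.17 ± 0.11 under IL-17 (edgeR, adjusted p = 1.9e-06, 5.0e-10, 2.3e-05 and 7.1e-08). Under TGF-β it fell by 0.66 ± 0.17 with si-IAMP-2 (adjusted p = 0.0074) and stood at -0.39 ± 0.17 with si-IAMP-1 (adjusted p = 0.122).

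**Figure D4:**
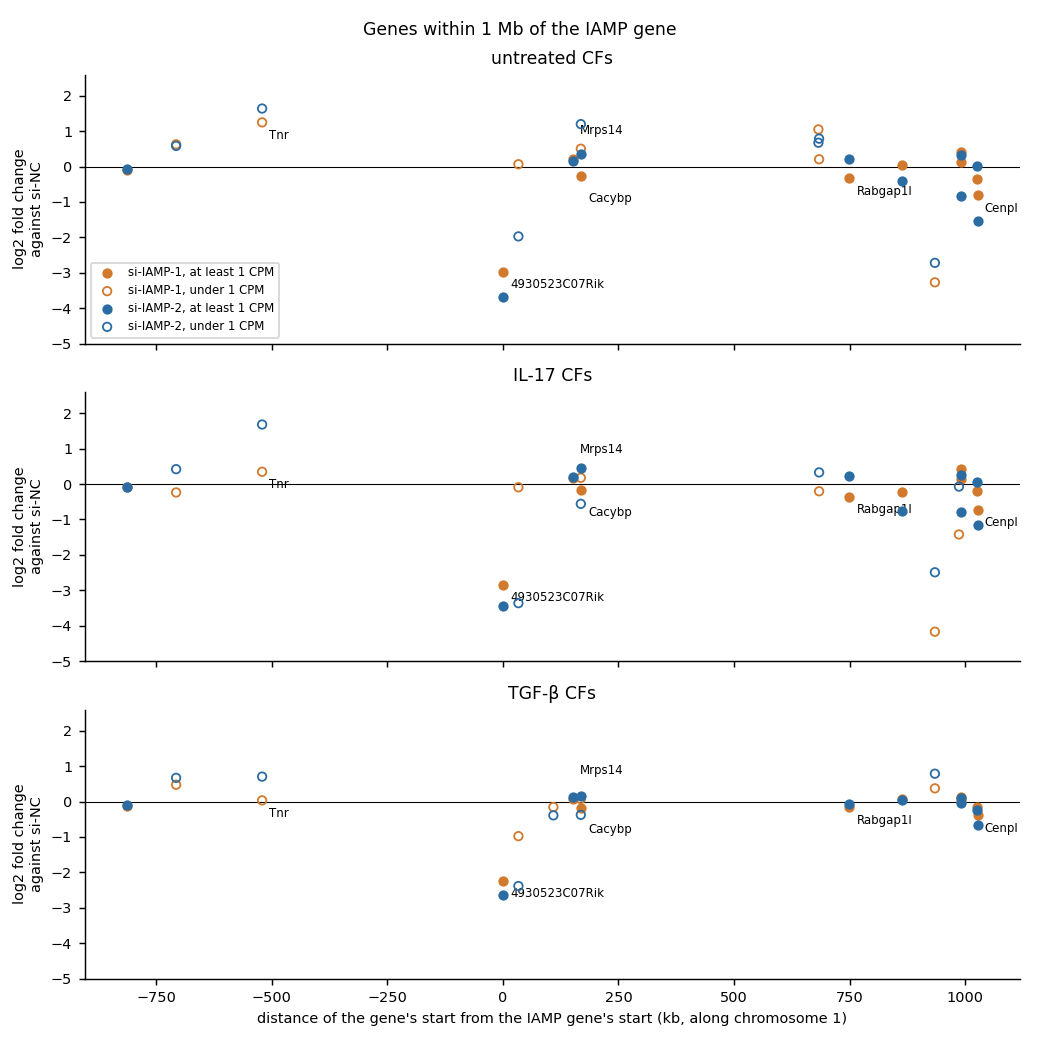
Log2 fold change against si-NC (y axis) of the tested genes within 1 Mb of the IAMP gene, by the distance of their start from the IAMP start in kb (x axis), in the 3 CF tables. Filled points have a mean of at least 1 CPM and open points less, and among the filled points 4930523C07Rik lies at -2.23 to -3.69 while Mrps14, Cacybp and Rabgap1l stay within -0.37 and 0.45.

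Relatives of the neighbours were read from gene lists, whose counts stand against 39.9% of all genes called with si-IAMP-1 and 49.3% with si-IAMP-2 in untreated CFs. Of the 4 tenascins, 3 were tested in untreated CFs, with Tnr among them, and 2 were higher and 0 lower with each siRNA. Tnxb was higher with both siRNAs, by 1.18 ± 0.06 and 0.90 ± 0.06 (edgeR, adjusted p = 5.4e-09 and 3.7e-08). Tnc, the tenascin of injured tissue, was higher with si-IAMP-1 by 0.39 ± 0.04 (adjusted p = 4.6e-07) and stood at 0.08 ± 0.04 with si-IAMP-2 (adjusted p = 0.13). The list median was 1.18 and 0.90, beside -0.02 and -0.02 over all genes, and with TGF-β Tnc turned lower with si-IAMP-1, by -0.30 ± 0.04 (adjusted p = 3.0e-05). Of the 29 genes of the mitochondrial small ribosomal subunit, Mrps14 included, 7 were higher and 6 lower with si-IAMP-1 in untreated CFs, and 11 and 3 with si-IAMP-2, at medians of -0.01 and 0.11. That is 44.8% and 48.3% of the list, close to the shares of all genes. Mrps26 was higher with both (0.16 ± 0.06 and 0.75 ± 0.06, adjusted p = 0.033 and 7.6e-09) and Mrps6 lower with both (-0.45 ± 0.06 and -0.33 ± 0.06, adjusted p = 2.6e-05 and 3.3e-04).

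Among 7 genes whose proteins bind or work with Cacybp, 2 were higher and 4 lower with si-IAMP-1 in untreated CFs, and 4 higher and 2 lower with si-IAMP-2, at medians of -0.14 and 0.14. With 6 of 7 called by each siRNA the list is small for a reading against 39.9% and 49.3% of all genes. The ubiquitin ligase Siah2 was higher with both (0.76 ± 0.09 and 0.82 ± 0.09, edgeR, adjusted p = 5.1e-06 and 1.2e-06), and Siah1b lower with both (-0.46 ± 0.14 and -0.72 ± 0.14, adjusted p = 0.013 and 3.2e-04). The co-chaperone Sugt1, which also carries the domain shared with Cacybp, was lower with both, by -0.44 ± 0.05 and -0.20 ± 0.05 (adjusted p = 3.9e-06 and 0.0047). Skp1a, a subunit of SCF ubiquitin ligases, split between the siRNAs as Cacybp did, at -0.14 ± 0.04 and 0.43 ± 0.04 in untreated CFs (adjusted p = 0.004 and 2.1e-08) and -0.21 ± 0.03 and 0.47 ± 0.03 under IL-17 (adjusted p = 8.7e-05 and 3.25e-09). S100a6, a calcium-binding partner named after its values were seen, split in untreated CFs too, at -0.20 ± 0.04 and 0.33 ± 0.04 (adjusted p = 6.75e-04 and 3.0e-06), while under IL-17 si-IAMP-1 left it at 0.03 ± 0.03 (adjusted p = 0.514). Among 6 RabGAP genes, Rabgap1l included, 2 were higher and 2 lower with si-IAMP-1 and 3 higher and 1 lower with si-IAMP-2, which is 66.7% of the list each. Tbc1d1 rose by 0.76 ± 0.04 and 0.45 ± 0.04 (adjusted p = 1.9e-10 and 4.8e-08) and its relative Tbc1d4 changed by -0.93 ± 0.08 and -0.88 ± 0.08 (adjusted p = 1.0e-07 for each). Both act on GLUT4 traffic. Evi5 stood at -0.07 ± 0.04 with si-IAMP-1 (adjusted p = 0.12) and rose by 0.46 ± 0.04 with si-IAMP-2 (adjusted p = 1.45e-08). In hearts none of the tested genes of the 4 lists was called.

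The pattern of 4930523C07Rik over the 27 CF libraries was most like that of genes elsewhere in the genome. On log2(CPM + 1) values centred on each table, the highest Pearson r among 12613 genes was 0.99 for Hmmr, followed by Thy1 and Kif20a (0.98 each), Ccnd1 (0.98) and Mcam (0.98). These values describe libraries that share the same 2 siRNAs and the same controls, and carry no p. Hmmr and Kif20a act in mitosis, Ccnd1 is cyclin D1, and Thy1 and Mcam are surface proteins. In untreated CFs the log2 fold changes were -1.85 ± 0.04 and -2.05 ± 0.04 for Ccnd1 and -1.17 ± 0.06 and -1.51 ± 0.06 for Hmmr (edgeR, adjusted p = 7.3e-15, 8.2e-16, 5.4e-11 and 8.6e-13). The neighbours stood far down the same order. Rabgap1l had an r of 0.08 (rank 5733), Cacybp -0.26 (rank 7759) and Mrps14 -0.70 (rank 10664). After centring on each table, r mostly ranks genes by how they changed with the 2 siRNAs. The ranks of the neighbours thus restate their fold changes given above and are no separate evidence.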

How the data were processed

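RNA-Seq of 27 CF and 8 heart libraries was read from 4 deposited tables. The submitters' processing notes name Cutadapt, HISAT2, StringTie and DESeq2, and the build GRCm38. The values the authors deposited are whole numbers without normalization, read here as estimated counts in CFs, since they step by about 6, and as counts in hearts. Neither the annotation release, nor the strand setting, nor how StringTie output became integers is given in the sources used here. Strandless counting would merge overlapping genes. The heart columns carry a genotype but no sample number. All columns were used. Positions come from GENCODE vM21 (55141 of 55487 identifiers matched), and promoter sequences from RefSeq (6 of 6 genes matched).

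All libraries of a table entered 1 edgeR 4.0.16 fit (R 4.3.3) with TMM, filterByExpr and a robust quasi-likelihood test. Benjamini-Hochberg adjustment ran over all genes tested, and 0.05 was the limit for a call. Standard errors are the log2 fold change over the square root of F. Intervals are 95%. Stimuli and differences of siRNA effects were tested in 1 fit of 6 groups over 2 tables. Fold thresholds are those of the study, with that of untreated CFs carried to hearts and that of IL-17 to TGF-β.

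The 6 genes, the lists and the tests were chosen with earlier results of these data known. Beside the 6 genes, the text names a gene within 1 Mb with at least 1 CPM and past the fold threshold with both siRNAs in 1 table, from each list 2 to 4 genes with the largest mean change in untreated CFs, and the 5 genes most like IAMP. Tnnt2, Myh6, Tubb3, Sox10, S100a6, Gm37294 and 4930562F07Rik were named after their values were seen. Alternatives were DESeq2 1.42.0, RLE size factors, other filters, fits of the compared groups alone, estimated counts divided by 6, a replicate block, other windows and fold thresholds, and leaving out each library. The fits were tested on simulated data with 200 changed genes. The siRNA sequences were not used here.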

Additional observations from a re-analysis of the deposited data

Results flagged for a closer look

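The knockdown of 4930523C07Rik was shallower in the TGF-β table than in the untreated table, with a difference of the log2 fold changes of 0.73 for si-IAMP-1 and 1.03 for si-IAMP-2 by the interaction test in edgeR (adjusted p = 0.0011 and 1.7e-05). The effects of si-IAMP-2 on Cacybp and Rabgap1l also differed between these tables, by -0.20 and -0.29 (adjusted p = 0.0061 and 0.0105), and the Rabgap1l call was lost when any 1 of 3 libraries was left out. Of all genes, 19.6% with si-IAMP-1 and 30.2% with si-IAMP-2 passed this test. TGF-β and the experiment it was run in cannot be told apart here.

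In KO hearts 1 library lay apart from the other 3 in Tnr (gap over range 0.865, above Dixon's critical value for 4 samples). It held 3 counts and the others 5 each, at a level where 3 counts is the floor. The critical value is made for continuous values, and here 3 counts were tied, so no rate of such marks by chance is given. The rule was applied to each of the 6 genes in both heart groups.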

How the results depend on the processing

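No called fold change of 4930523C07Rik, Tnr, Mrps14, Cacybp or Rabgap1l changed sign under any alternative. Tnn was left out of this check. The loss of IAMP transcript with each siRNA kept its call in every alternative. The IAMP difference between TGF-β and untreated si-NC cells passed after division of the counts by 6 (-0.20) and with the compared groups alone (-0.20), and ranged from -0.28 to -0.15 with each library left out in turn. The IL-17 difference ranged from -0.41 to -0.26 and the difference between the siRNAs under TGF-β from -0.52 to -0.33. The count of neighbours past the fold threshold in untreated cells became 1 in place of 0 with si-IAMP-1 without a filter, and 0 in place of 1 with si-IAMP-2 with at least 10 counts in every library or with counts divided by 6, and ranged from 0 to 1 over the left-out libraries with either siRNA, as it did for si-IAMP-2 under IL-17. With si-IAMP-2 the gene concerned was Tnr. In untreated cells Tnr was removed by the filter in those 2 settings, with 8 estimated counts in si-NC replicate 3. The 0 there means that Tnr was not tested, and not that its test failed. With si-IAMP-1, Tnr passed only when si-NC replicate 2 was left out (1.81). In the other si-IAMP-1 settings the fold changes of Tnr, Mrps14, Cacybp and Rabgap1l did not pass, which leaves Tnn. Tnr and Tnn are both near the floor. Of the other genes within 1 Mb, 3 in place of 5 were called with si-IAMP-1 in untreated cells without a filter or with the compared groups alone, and 2 to 5 with a library left out. With si-IAMP-2 under TGF-β 2 in place of 1 were called with DESeq2 or RLE size factors, and 1 to 2 with a library left out. A window of 0.5 Mb held 0 calls in each of the 6 siRNA comparisons, but only 4930562F07Rik and 4933417C20Rik, both with few counts, were tested in it. A window of 2 Mb held 9 and 9 in untreated, 7 and 12 in IL-17 and 4 and 5 in TGF-β cells. It holds 95 annotated genes, against 63 within 1 Mb. Of all genes, 39.9% and 49.3% were called in untreated, 42.3% and 50.6% in IL-17 and 23.1% and 29.9% in TGF-β cells. The number tested in the wider window is not given here, so its counts are not read as shares.

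Replicate numbers did not pair the CF libraries (no same-numbered pair correlated above 0.0701, and 1, 3 and 0 of 9 libraries in the untreated, IL-17 and TGF-β tables correlated best with their own number). With the replicate block the number of genes called in the 6 siRNA comparisons was 0.971 to 0.99 times that without it, and Tnr with si-IAMP-2 under IL-17 reached 2.33 (adjusted p = 0.031), which made 1 neighbour past the threshold in place of 0. No paired analysis was possible in hearts because their columns carry no replicate numbers. Depth limits the statements on Tnn, Tnr and the noncoding genes of the locus.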
